A study of Mus musculus with 24 samples.

Results

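Collagens and ADAMTS proteases were followed in the adult mouse hippocampus as 63 genes of the 55471 in the deposited count table. They were chosen by symbol alone, as every gene named as a collagen chain (44 genes) or as a numbered Adamts protease (19 genes), without antisense genes, pseudogenes or ADAMTS-like genes. RNA was sequenced from the hippocampus of 12 female C57BL/6 mice aged 3 to 6 months, 3 in each of 4 groups. CBP-ifKO mice carried f/f (loxP-flanked) alleles of Crebbp, the gene of the lysine acetyltransferase CBP, and a Camk2a-creERT2 transgene that acts only in forebrain excitatory neurons. Control littermates lacked the creERT2 transgene, and both genotypes received tamoxifen. Mice of each genotype lived in standard cages (SC) or in environmental enrichment (EE), which were large boxes with running wheels and toys. Glia, vessels and meninges are outside the reach of the driver, and the hippocampus was sequenced whole, so that fewer cells of a type and less RNA per cell cannot be told apart.

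Collagens are triple-helical proteins of the extracellular matrix. Fibrillar collagens build the fibrils of connective tissue, which the brain holds mainly in its meninges and around its larger vessels, whereas type IV collagens form the basement membranes of all brain vessels and several transmembrane collagens are made by neurons. ADAMTS enzymes are secreted metalloproteases. Some trim the ends of procollagens, others cut the proteoglycans of the perineuronal and perisynaptic matrix, and ADAMTS13 cuts von Willebrand factor.

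Libraries held between 26874015 and 37448388 counts, of which the collagen and ADAMTS genes together took between 0.0730% and 0.0909%. Values are given as TMM-scaled CPM (counts scaled to library size), and levels of different genes are compared only as RPKM, which divides CPM by the exonic length of the gene. No odd count occurred in any of the 6 CBP-ifKO libraries, although each control library held at least 14042 of them. With the CBP-ifKO counts divided by 2, the number of collagen and ADAMTS genes past the threshold for genotype was 8 in SC and 8 in EE, against 8 and 6 with the counts as deposited. Crebbp, the targeted gene, was measured at 74.4, 81.9 and 71.0 CPM in control SC mice and at 50.4, 51.2 and 49.7 CPM in CBP-ifKO SC mice. In EE, it was at 72.7, 77.4 and 70.0 CPM in controls and 44.4, 48.0 and 46.5 CPM in CBP-ifKOs, and the genotypes did not overlap in either housing. All 10 listed markers of hippocampal excitatory neurons had counts in every library, and their sums overlapped between genotypes in each housing. Among them, Wfs1, Fibcd1 and Spink8 were lower in CBP-ifKOs in both housings. Their log2 fold changes were -0.72, -0.39 and -0.65 in SC (edgeR, adjusted p = 0.00490, 0.00626 and 0.0108). In EE they were -0.999, -0.62 and -0.48 (adjusted p = 0.000828, 0.00119 and 0.00948).

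One library stood apart. In control EE replicate 1, 14 of 14 listed choroid plexus markers were at their highest, and their summed level was 1348 CPM against 42.5 to 75.0 CPM in the other 11 libraries. Ttr, which encodes transthyretin, the main secreted protein of choroid plexus epithelium, was at 1134 CPM there and at no more than 32.2 CPM elsewhere. The 24 listed markers of meningeal fibroblasts varied less. Their summed level was highest in CBP-ifKO EE replicate 1, at 627 CPM, where 18 of the 24 reached their highest value, and lowest in CBP-ifKO EE replicate 2, at 349 CPM. Ccn3 alone gave 31.1% to 50.4% of this sum. Without Ccn3, the sum was still highest in CBP-ifKO EE replicate 1, at 432 CPM, but lowest in CBP-ifKO SC replicate 1, at 182 CPM.

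The promoters are shown first, as the 250 bases before the start of 7 genes on which the results turn. Adamts1, Adamts2, Adamts13, Col5a1 and Col11a1 differed between genotypes, Col3a1 represents the fibrillar collagens that vary between single mice, and Col8a2 the collagens high in the library rich in choroid plexus RNA. Sequences are from RefSeq (GRCm38.p6), 5′ to 3′ on the strand of the gene. Capitals mark matches on either strand of the CCAAT box (these 5 letters), of a GC box (spelled GGGCGG), of the CRE half-site (spelled TGACG, the core of the site bound by CREB, the factor after which CBP is named) or of a TATA box (spelled TATAAA), which may overlap.
Adamts1 (chr16:85803114-85803363, minus strand): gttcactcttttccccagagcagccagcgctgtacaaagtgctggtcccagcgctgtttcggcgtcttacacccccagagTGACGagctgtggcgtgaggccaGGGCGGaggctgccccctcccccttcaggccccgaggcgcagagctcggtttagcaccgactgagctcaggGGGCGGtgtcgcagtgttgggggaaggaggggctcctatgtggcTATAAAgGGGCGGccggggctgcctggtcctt
Adamts2 (chr11:50601835-50602084, plus strand): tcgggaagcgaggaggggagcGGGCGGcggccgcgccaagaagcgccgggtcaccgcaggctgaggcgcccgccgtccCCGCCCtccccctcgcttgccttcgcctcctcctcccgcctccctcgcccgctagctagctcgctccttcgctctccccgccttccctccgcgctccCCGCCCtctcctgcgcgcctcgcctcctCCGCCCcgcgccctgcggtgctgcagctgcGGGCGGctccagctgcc
Adamts13 (chr2:26973166-26973415, plus strand): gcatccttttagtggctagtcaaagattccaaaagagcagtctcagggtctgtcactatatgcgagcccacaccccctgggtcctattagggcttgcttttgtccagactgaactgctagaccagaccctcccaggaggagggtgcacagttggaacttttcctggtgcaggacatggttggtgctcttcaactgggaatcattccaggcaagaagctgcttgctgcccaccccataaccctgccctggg
Col5a1 (chr2:27886175-27886424, plus strand): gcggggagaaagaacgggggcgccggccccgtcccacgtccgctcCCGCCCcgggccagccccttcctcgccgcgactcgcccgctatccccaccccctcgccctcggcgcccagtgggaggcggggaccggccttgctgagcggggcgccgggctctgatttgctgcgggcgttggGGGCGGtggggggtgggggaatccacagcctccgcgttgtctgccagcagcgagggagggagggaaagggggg
Col11a1 (chr3:114030290-114030539, plus strand): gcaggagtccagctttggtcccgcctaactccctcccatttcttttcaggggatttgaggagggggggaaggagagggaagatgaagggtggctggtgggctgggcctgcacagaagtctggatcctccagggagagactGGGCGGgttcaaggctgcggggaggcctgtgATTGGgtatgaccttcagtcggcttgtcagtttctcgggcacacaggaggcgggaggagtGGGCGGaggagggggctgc
Col3a1 (chr1:45311288-45311537, plus strand): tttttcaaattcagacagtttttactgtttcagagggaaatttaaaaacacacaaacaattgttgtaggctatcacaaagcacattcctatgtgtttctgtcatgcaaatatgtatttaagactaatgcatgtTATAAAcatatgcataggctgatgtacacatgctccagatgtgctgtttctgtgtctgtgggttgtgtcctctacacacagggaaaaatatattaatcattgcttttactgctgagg
Col8a2 (chr4:126286544-126286793, plus strand): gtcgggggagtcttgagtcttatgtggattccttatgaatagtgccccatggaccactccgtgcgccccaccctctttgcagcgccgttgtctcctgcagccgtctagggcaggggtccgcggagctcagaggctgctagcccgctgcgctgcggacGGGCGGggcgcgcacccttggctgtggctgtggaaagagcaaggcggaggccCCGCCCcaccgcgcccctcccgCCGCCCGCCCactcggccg

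The Adamts1 window holds a TATA box 32 bases before the start, a CRE half-site 170 bases before it and 3 GC boxes. Adamts2 has 5 GC boxes and Col8a2 has 4, some of which overlap, and the Adamts13 window has no match to any of the motifs searched. The Col11a1 window has a CCAAT box 79 bases before the start, and in Col3a1 the TATAAA letters lie 117 bases before it. Of the 63 genes, 45 matched the RefSeq table, with 48 windows, of which 29 (60.4%) held a GC box, against 32.7% of 32851 windows of all genes. A CCAAT box was found in 15 (31.2%) against 33.8%, a CRE half-site in 8 (16.7%) against 17.8%, and a TATA box in 6 (12.5%) against 12.4%. These matches describe letters only.

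The level of the collagen and ADAMTS genes spanned more than 3 orders of magnitude. Per length, Col4a2, which forms the basement membrane network of vessels together with Col4a1, was the highest at a median of 15.9 RPKM over the 12 mice (14.6 to 18.4). Col6a1, a chain of type VI beaded filaments, followed at 14.6 RPKM (9.03 to 22.5), a range that overlaps that of Col4a2. Col4a1 was at 9.58 RPKM, and Col25a1, a transmembrane collagen of neurons, was at 6.89 RPKM. Among the proteases, Adamts10 (4.02 RPKM), Adamts1 (3.81 RPKM) and Adamts4 (3.66 RPKM), the last 2 of which cut aggrecan-family proteoglycans, had the highest medians and overlapped one another in range. The fibrillar chains Col1a1 (0.963 RPKM), Col1a2 (0.761 RPKM) and Col3a1 (0.420 RPKM) stood in the middle and lower part of the order. Col10a1 and Adamts19 were at the bottom, with no more than 8 and 10 counts in any library and 0 in some. These 2 genes did not pass edgeR's filter on low counts in the fit of all 12 mice, which kept 61 genes, and Col17a1 did not pass it in the fits of 6 mice, which kept 60.

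**Figure D1:**
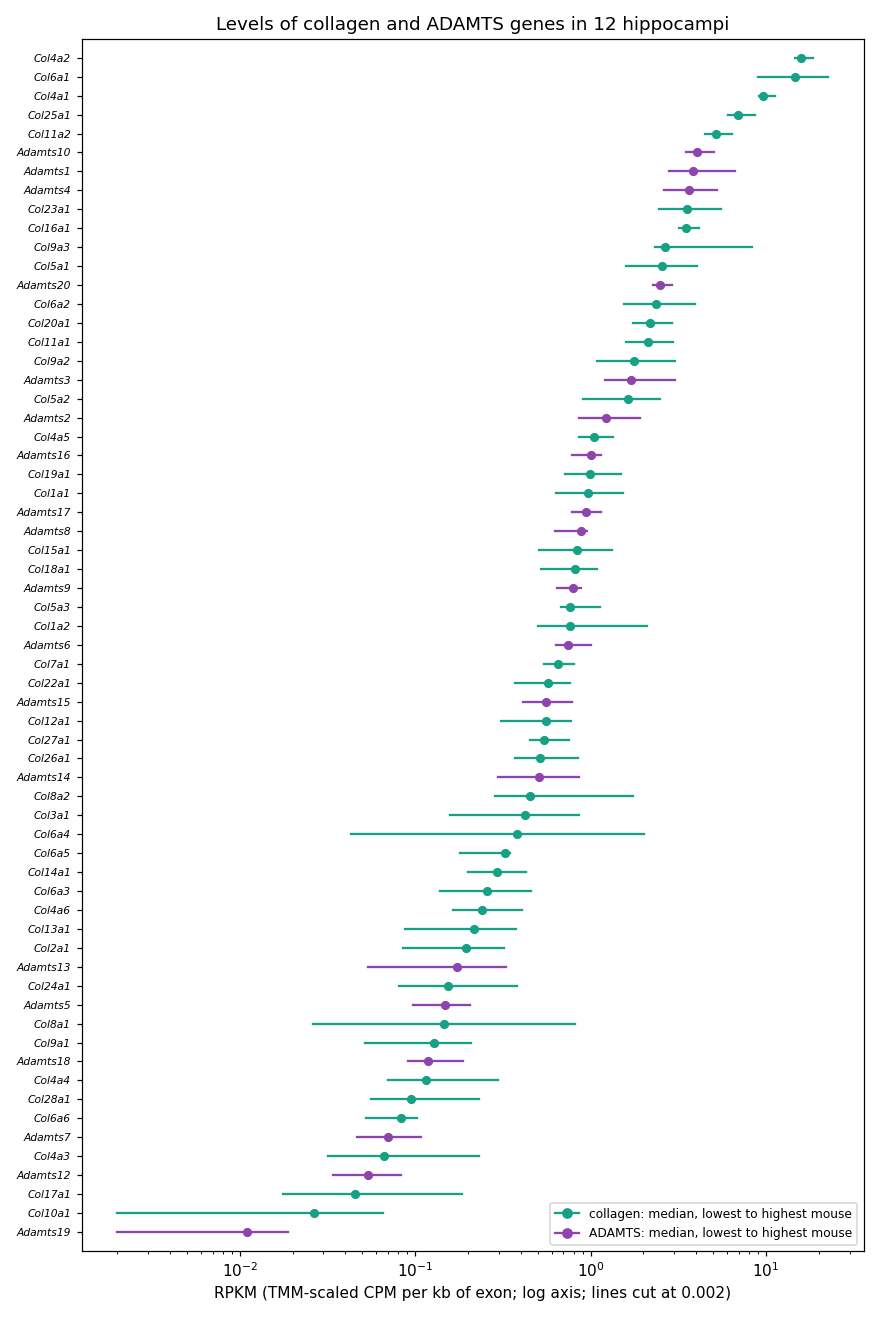
RPKM (log axis) of the 63 collagen and ADAMTS genes, with the median of the 12 mice as a point and a line from the lowest to the highest mouse. Col4a2, Col6a1 and Col4a1 stand at the top, and Col6a4, Col8a1 and Col17a1 have long lines.

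Mice of 1 group differed more in these genes than in most others. The spread within groups, as the SD pooled over the 4 groups and divided by the mean, had a median of 22.4% over the 61 genes and 9.37% over all 18251 genes tested. It exceeded 30% in 20 of the 61 (32.8%), against 14.3% of all genes. Col4a2 (5.20%), Adamts20 (6.03%) and Col4a1 (6.12%) were the steadiest. Col6a4 and Col8a1 were the most variable, at 109% and 109%. Lower genes have a larger counting error, which is part of this spread.

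The first question was which of these genes differed between CBP-ifKOs and controls kept in SC. In SC, 8 of the 60 genes tested passed the threshold (edgeR's quasi-likelihood test, Benjamini-Hochberg adjusted p below 0.05 over 17532 genes), 6 lower and 2 higher in CBP-ifKOs, which is 13.3% against 5.52% of all genes (4.02% lower and 1.51% higher). An unadjusted p below 0.05 was reached by 13 of the 60, against 20.5% of all genes. The 6 that fell are Col12a1, Col5a1 and Col18a1 among the collagens and Adamts1, Adamts2 and Adamts13 among the proteases, and the 2 that rose are Col11a1 and Adamts10. Col12a1 and Col11a1 belong to gene lists that the study drew in part from these libraries, so that their direction here is not independent evidence. The median log2 fold change was -0.20 over the 60 genes and -0.00189 over all genes, and 12 of the 60 had every CBP-ifKO mouse below every control mouse, while 2 had the reverse. Among all genes, 25.8% did not overlap between the groups. Covariates were added to a fit of all 12 mice. Without a covariate, 7 of the 8 genes passed in that fit, all but Col18a1 (-0.63, adjusted p = 0.0727). With the meningeal marker level added, 5 genes passed, of which Adamts1, Adamts10, Col12a1 and Col5a1 are among the 8. The log2 fold change of Adamts2 was -0.50 in the 12 mice without the covariate (adjusted p = 0.0322) and -0.44 with it (adjusted p = 0.0740). That of Adamts13 was -1.23 in the 12 mice without the covariate (adjusted p = 0.0212) and -1.15 with it (adjusted p = 0.0567). That of Col11a1 was 0.48 in the 12 mice without the covariate (adjusted p = 0.0398) and 0.41 with it (adjusted p = 0.0896). That of Col18a1 was -0.40 with it (adjusted p = 0.107). The summed choroid plexus markers also separated the SC groups. Their summed level was 63.9, 58.7 and 61.9 CPM in control SC mice and 42.5, 44.1 and 48.7 CPM in CBP-ifKO SC mice, 8 of the 10 tested had negative estimates, and 1 passed, Ttr, which was lower in CBP-ifKOs (-1.70 ± 0.12, adjusted p = 2.20e-05). The other 13 markers without Ttr summed to 37.7, 37.3 and 41.1 CPM and 35.4, 38.1 and 41.0 CPM and overlapped, so that Ttr carries the separation. With the choroid plexus level as the covariate, chosen after seeing the data, the same 7 genes passed as in the 12 mice without one. That level was 1348 CPM in control EE replicate 1 and at most 75.0 CPM in any other library, so that its slope rests mainly on that EE library. The part of choroid plexus RNA in the SC values was not tested.

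Col12a1 encodes a fibril-associated collagen that coats fibrils. It was at 10.8, 11.7 and 11.4 CPM in the 3 control SC mice and 4.70, 5.08 and 6.22 CPM in the 3 CBP-ifKO SC mice. All 3 CBP-ifKO mice were far below the lowest control. The log2 fold change was -1.07 ± 0.13 (SE; adjusted p = 0.000798, edgeR), the smallest p among these genes in SC. In EE, it was at 8.71, 8.68 and 10.6 CPM in controls and 8.23, 5.94 and 5.09 CPM in CBP-ifKOs. All 3 CBP-ifKO mice were again lower, but replicate 1, the mouse with the highest meningeal marker level, lay just under the lowest control. The log2 fold change in EE was -0.52 ± 0.18 and did not pass (adjusted p = 0.129). Without that mouse it was -0.74 (adjusted p = 0.0326), and in the fit of 12 mice -0.52 without (adjusted p = 0.0596) and -0.55 with the meningeal marker level as a covariate (adjusted p = 0.00919).

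Col5a1, a minor fibrillar chain that sets fibril diameter, was lower in CBP-ifKOs in both housings. It was at 28.9, 34.6 and 29.0 CPM in control SC mice and 22.6, 14.5 and 21.0 CPM in CBP-ifKO SC mice, and at 26.6, 22.7 and 20.9 and 15.8, 13.6 and 13.9 CPM in the EE groups. No CBP-ifKO mouse reached the level of a control mouse of the same housing. The log2 fold change was -0.66 ± 0.14 in SC (adjusted p = 0.0185) and -0.67 ± 0.10 in EE (adjusted p = 0.00495), where it had the smallest p of the 60 genes. It stayed past the threshold under every alternative run. Col5a1 shares 99 and 113 exonic bases with 2 genes of the opposite strand, and whether the counting used strand is not given in the sources used here.

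Col15a1 and Col18a1 are the multiplexins, basement membrane collagens from whose ends endostatin-like fragments are released. Col15a1 was at 5.56, 6.15 and 8.45 CPM in control SC mice, 4.05, 3.57 and 5.11 CPM in CBP-ifKO SC mice, 7.42, 5.62 and 6.25 CPM in control EE mice and 3.24, 3.40 and 4.68 CPM in CBP-ifKO EE mice. It was lower in every CBP-ifKO in both housings, with log2 fold changes of -0.65 ± 0.18 in SC (adjusted p = 0.0670) and -0.75 ± 0.18 in EE (adjusted p = 0.0372), and only the second passed. That call passed in 2 of the 6 fits without a mouse, those without control replicate 2 and without CBP-ifKO replicate 3. Col18a1 was at 6.01, 6.42 and 7.65 CPM in control SC mice and 4.23, 3.64 and 4.95 CPM in CBP-ifKO SC mice, which did not overlap (-0.63 ± 0.15, adjusted p = 0.0355). In EE, it was at 6.13, 5.39 and 6.54 CPM in controls and 7.26, 3.98 and 4.80 CPM in CBP-ifKOs, and replicate 1 of the latter was above every control (-0.15 ± 0.21, adjusted p = 0.749). The SC call of Col18a1 was lost in the fit of 12 mice, with and without the covariate, as given above. It passed in 3 of the 6 fits without a mouse, and was lost without control replicate 3, CBP-ifKO replicate 1 or CBP-ifKO replicate 2. Markers of other vessel cells also separated the SC groups. The summed level of the 12 endothelial markers was 338, 328 and 336 CPM in control SC mice and 303, 283 and 292 CPM in CBP-ifKO SC mice, with 12 of 12 estimates below 0 and 1 past the threshold, Kdr, whose call was lost in 4 of the 6 fits without a mouse (adjusted p up to 0.104). That of the 12 mural markers was 346, 335 and 395 CPM and 287, 267 and 295 CPM, with 12 of 12 below 0 and 1 past it, Rgs5, whose call was lost in 3 of the 6 (adjusted p up to 0.0747). The Kdr call passed without control SC replicate 1 or 2 and the Rgs5 call without either of these or CBP-ifKO SC replicate 1. In EE, the endothelial sum was 331, 299 and 314 CPM in controls and 317, 323 and 317 CPM in CBP-ifKOs, with 7 of 12 estimates above 0 and 0 past the threshold (edgeR, 1 at an unadjusted p below 0.05). The mural sum was 328, 288 and 327 CPM and 387, 307 and 334 CPM, with 7 of 12 above 0 and 1 past it, Myh11, a smooth muscle myosin, which was higher in CBP-ifKOs (0.94 ± 0.21, adjusted p = 0.0302). Its call passed in 2 of the 6 fits without a mouse, those without control EE replicate 1 and CBP-ifKO EE replicate 2, with an adjusted p of up to 0.1005 in the others. The sums of both lists overlapped between the EE groups. The part of vessel cells in the multiplexin values was not tested.

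Col11a1, a minor fibrillar chain known from cartilage, was the collagen that rose in SC. It was at 20.2, 25.2 and 21.1 CPM in control SC mice and 30.1, 29.1 and 32.7 CPM in CBP-ifKO SC mice, with no overlap (0.48 ± 0.09, adjusted p = 0.0116). The call was lost without CBP-ifKO replicate 3 (adjusted p = 0.0581). In EE, it was at 20.8, 27.7 and 22.6 CPM in controls and 26.1, 33.2 and 37.4 CPM in CBP-ifKOs, where CBP-ifKO replicate 1 fell below the highest control. The estimate there was of like size, 0.47 ± 0.13, and did not pass (adjusted p = 0.0764). Without that mouse it was 0.59 (adjusted p = 0.0265).

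Among the proteases, Adamts1, a secreted proteoglycanase of the aggrecan and versican family, fell in both housings. It was at 21.5, 22.3 and 35.4 CPM in control SC mice and 14.8, 15.2 and 17.4 CPM in CBP-ifKO SC mice, and at 23.5, 30.5 and 25.9 and 15.1, 16.3 and 18.9 CPM in the EE groups. The highest CBP-ifKO mouse, at 18.9 CPM, was below the lowest control mouse of either housing, at 21.5 CPM. The log2 fold change was -0.73 ± 0.16 in SC (adjusted p = 0.0243) and -0.65 ± 0.11 in EE (adjusted p = 0.00860). The EE call passed in all 6 fits that left out a mouse, and the SC call was lost without any 1 of the 3 CBP-ifKO mice (adjusted p = 0.103, 0.0982 and 0.0542 without replicates 1, 2 and 3).

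Adamts13, which cuts von Willebrand factor, had the estimate farthest from 0 of the 60 genes in both housings, from few counts. It was at 1.19, 1.51 and 1.57 CPM in control SC mice against 0.536, 0.756 and 0.527 CPM in CBP-ifKO SC mice, and at 1.44, 1.63 and 0.956 CPM against 0.412, 0.265 and 0.351 CPM in EE. The groups did not overlap in either housing, although the lowest library held only 10 counts. The log2 fold change was -1.23 ± 0.29 in SC (adjusted p = 0.0316) and -1.93 ± 0.33 in EE (adjusted p = 0.00812). The SC call passed only in the fit without CBP-ifKO replicate 2 among the 6 that left out a mouse, with adjusted p-values up to 0.137, whereas the EE call passed in all 6. DESeq2 gave no adjusted p for this gene through its filter on low means, with log2 fold changes of -1.23 in SC and -1.95 in EE.

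Adamts10, a protease tied to fibrillin microfibrils, was the one that rose. It was at 29.0, 32.0 and 29.5 CPM in control SC mice and 41.2, 36.4 and 36.0 CPM in CBP-ifKO SC mice, and at 29.4, 29.2 and 31.1 and 41.4, 40.4 and 34.4 CPM in EE. Every CBP-ifKO was above every control, by 0.34 ± 0.07 in SC (adjusted p = 0.0234) and 0.40 ± 0.08 in EE (adjusted p = 0.0208) on the log2 scale. Each call was lost in 4 of the 6 fits without a mouse, with adjusted p-values up to 0.101 in SC and 0.0871 in EE.

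**Figure D2:**
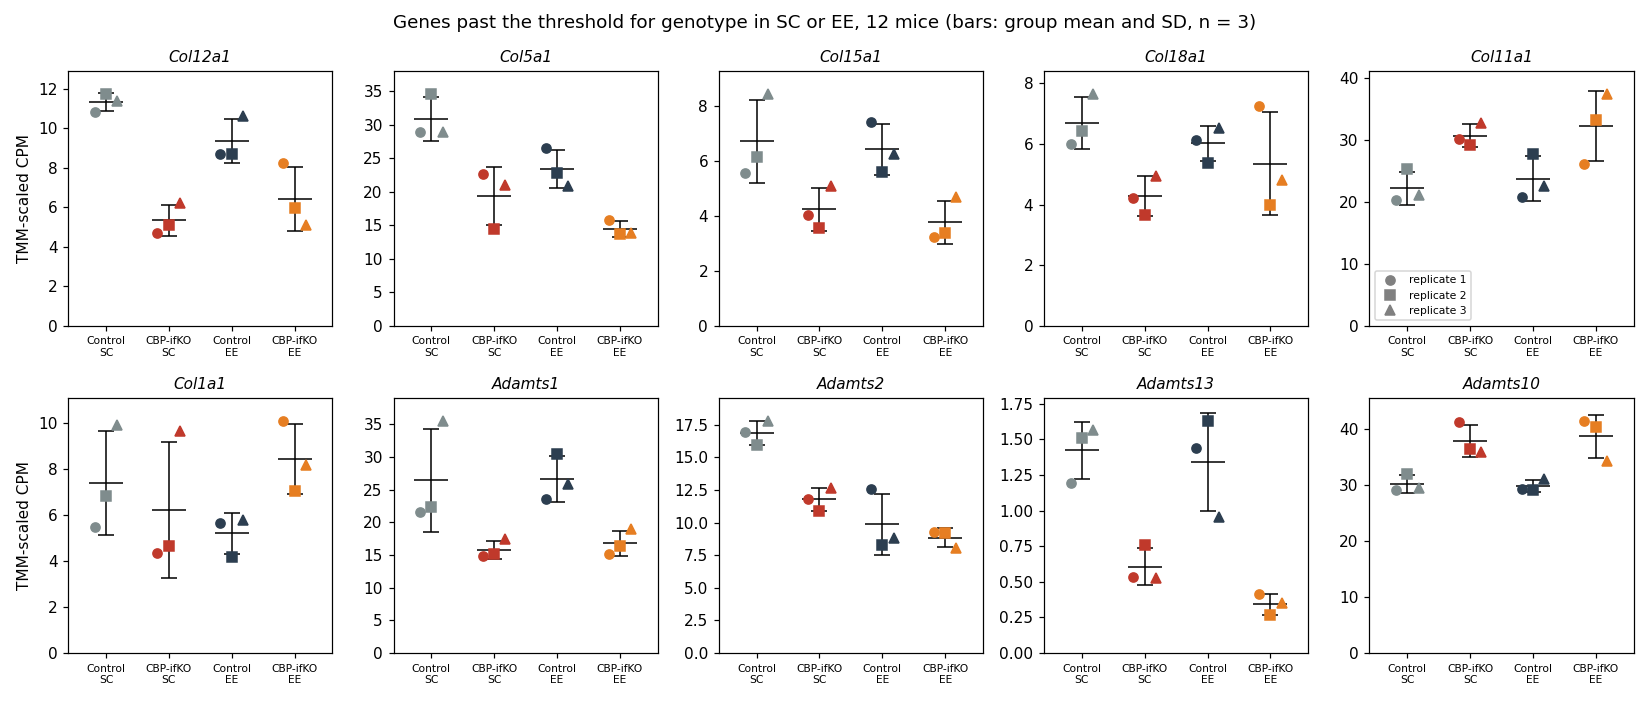
TMM-scaled CPM (linear axes from 0) of the 10 genes past the threshold for genotype in SC or EE, with 1 point per mouse, its shape giving the replicate number, and the mean and SD of each group as bars. Col5a1, Col12a1, Col15a1, Adamts1, Adamts13 and Adamts10 separate the genotypes in both housings, whereas Adamts2 separates control SC mice from the other 3 groups.

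In EE, 6 of the 60 genes tested passed the same test (10%, against 4.57% of 17625 genes), 4 lower (3.53% of all genes) and 2 higher (1.03% of all genes) in CBP-ifKOs, and 18 had an unadjusted p below 0.05 (19.6% of all genes). They were Col5a1, Col15a1, Adamts1 and Adamts13, which fell, and Adamts10 and Col1a1, which rose. The count was 10 with DESeq2, 8 in the fit of all 12 mice, 12 in that fit with the meningeal marker level as a covariate, 18 without the filter on low counts, and 3 (Adamts1, Adamts13 and Col5a1) without control EE replicate 3. The median log2 fold change was -0.07 over the 60 genes and 0.01 over all genes. 8 genes had every CBP-ifKO mouse above every control and 9 had every one below, against 25.2% of all genes without overlap in either direction. SC and EE results come from separate mice. All 8 genes past the threshold in SC had an estimate of the same sign in EE (99.1% of all genes that passed in SC). Of these, 4 passed in both, a share near that of all genes, where 493 of the 965 that passed in SC also passed in EE. Of the 6 past the threshold in EE, 5 had the same sign in SC, all but Col1a1 (83.3%, against 98.8% of all genes that passed in EE). Over all 60 genes, 33 (55.0%) kept their sign, against 72.0% of 17250 genes.

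**Figure D3:**
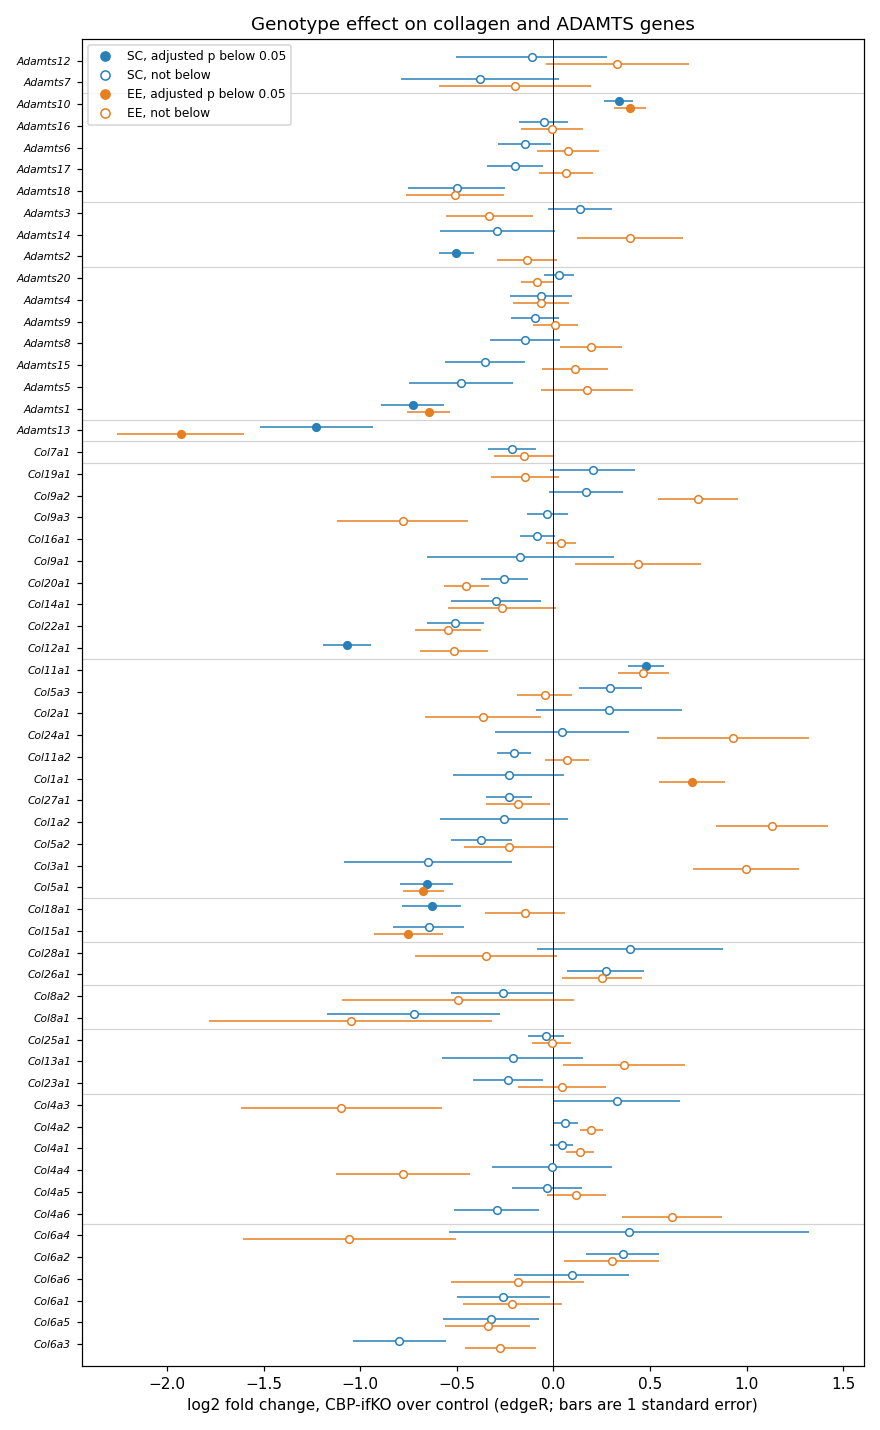
Log2 fold change of CBP-ifKO over control with 1 standard error for the 60 collagen and ADAMTS genes tested, in SC (blue) and EE (orange), grouped by class between grey lines. Filled points are past an adjusted p of 0.05. Col1a1, Col1a2 and Col3a1 lie left of 0 in SC and right of it in EE.

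The fibrillar chains Col1a1, Col1a2 and Col3a1, which make the type I and III fibrils of connective tissue, had estimates of opposite sign in the 2 housings. Col1a1 was at 5.49, 6.83 and 9.91 CPM in control SC mice, 4.35, 4.67 and 9.64 CPM in CBP-ifKO SC mice, 5.65, 4.18 and 5.81 CPM in control EE mice and 10.1, 7.06 and 8.19 CPM in CBP-ifKO EE mice. The SC groups overlapped (-0.23 ± 0.29, adjusted p = 0.706), and in EE every CBP-ifKO was above every control (0.72 ± 0.17, adjusted p = 0.0393). Without CBP-ifKO EE replicate 1 the estimate was 0.57 and did not pass (adjusted p = 0.124). Of the 6 fits that left out a mouse, 2 passed, those without control replicate 1 and without CBP-ifKO replicate 2. In the fit of 12 mice it was 0.71 and did not pass without a covariate (adjusted p = 0.143), and was 0.70 and passed with the meningeal marker level as one (adjusted p = 0.0292).

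Col1a2 varied over a wider range. It was at 7.88, 11.5 and 15.3 CPM in control SC mice, 6.19, 6.32 and 16.1 CPM in CBP-ifKO SC mice, 7.49, 6.62 and 8.89 CPM in control EE mice and 26.1, 10.03 and 13.5 CPM in CBP-ifKO EE mice. CBP-ifKO EE replicate 1 was the highest of all 12 mice, and the EE groups did not overlap. The EE estimate of 1.13 ± 0.29 missed the threshold narrowly (adjusted p = 0.0503) and was 0.64 without that mouse (adjusted p = 0.0733). In the fit of 12 mice it was 1.12 without (adjusted p = 0.0832) and 0.99 with the meningeal marker level as a covariate (adjusted p = 0.000535). Col3a1 was at 2.13, 4.79 and 8.38, 2.74, 1.65 and 5.16, 3.84, 1.55 and 3.20 and 6.64, 4.40 and 5.91 CPM in the same 4 groups. Its estimates were -0.65 ± 0.44 in SC and 0.999 ± 0.28 in EE, and neither passed (adjusted p = 0.445 and 0.0677). Without CBP-ifKO EE replicate 1, the EE estimate of Col3a1 was 0.86 (adjusted p = 0.172).

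The 24 meningeal fibroblast markers, none of which is a collagen, had estimates of mostly these same signs. Their summed level was 442, 497 and 567 CPM in control SC mice, 364, 369 and 524 CPM in CBP-ifKO SC mice, 458, 409 and 436 CPM in control EE mice and 627, 349 and 378 CPM in CBP-ifKO EE mice. In SC, 1 of the 24 had a positive genotype estimate and 0 passed (5 had an unadjusted p below 0.05), whereas in EE 21 were positive and 2 passed, both higher in CBP-ifKOs. In EE, CBP-ifKO replicate 1 had the highest value of its group in 23 of the 24. The sums of CBP-ifKO EE replicates 2 and 3 were below every control EE sum. The 24 estimates share their mice and are not independent. Fmod, which encodes a proteoglycan that binds fibrils, rose by 2.09 ± 0.46 on the log2 scale (adjusted p = 0.0269), and by 1.33 without CBP-ifKO EE replicate 1 (adjusted p = 0.0446). The Fmod call was lost without control EE replicate 2 or 3 or CBP-ifKO EE replicate 3, with an adjusted p of up to 0.0757. Aldh1a2, a retinoic acid synthesizing enzyme, rose by 1.13 ± 0.26 (adjusted p = 0.0329), and its estimate without CBP-ifKO EE replicate 1 was 0.84 (adjusted p = 0.0992). Of the 6 fits that left out a mouse, the Aldh1a2 call passed only in that without CBP-ifKO EE replicate 2. At most 2 of the 24 were at 0 in any library. Ccn3 alone gave between 31.1% (CBP-ifKO EE replicate 1) and 50.4% (control SC replicate 1) of the sum, and a list of 7 markers without it is used as an alternative below.

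The second question was whether enrichment changed these genes and whether CBP loss altered that change. In control mice, 0 of the 61 genes tested passed (edgeR, adjusted p below 0.05 and an absolute log2 fold change above 0.5), against 0% of 18251 genes. 5 had an unadjusted p below 0.05, against 4.21% of all genes, and DESeq2 gave 1, Adamts2. In CBP-ifKO mice, 0 of 61 passed, against 0.0110% of all genes, with 6 at an unadjusted p below 0.05 (8.59% of all genes) and 0 by DESeq2. The housings did not overlap in 6 of the 61 genes in controls (9.03% of all genes) and in 4 in CBP-ifKOs (15.9% of all genes). In the test of the environment and interaction terms together, 1 of 61 passed, Adamts2, against 0.0329% of all genes, and 3 had an unadjusted p below 0.05 (6.87% of all genes).

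Adamts2, the main procollagen N-proteinase, which removes the amino propeptide of fibrillar procollagens, was highest in control mice in SC. It was at 16.9, 15.9 and 17.8 CPM there, at 11.8, 10.9 and 12.6 CPM in CBP-ifKO SC mice, at 12.5, 8.29 and 8.78 CPM in control EE mice and at 9.31, 9.18 and 8.02 CPM in CBP-ifKO EE mice. Control SC mice overlapped with no other group, and control EE mice overlapped with both CBP-ifKO groups. The log2 change with EE was -0.77 ± 0.13 in controls, with an unadjusted p of 2.79e-05, the smallest of the 61 genes, and an adjusted p of 0.1497. In CBP-ifKOs it was -0.42 ± 0.13 (adjusted p = 0.433), and the difference between the 2 changes was 0.36 ± 0.19 (interaction, unadjusted p = 0.0737). The joint test gave an adjusted p of 0.0425.

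The highest of the control EE values belonged to replicate 1, the library with the choroid plexus signal. Without it, the change in controls was -0.98 (adjusted p = 0.00531) and passed, as it did with the choroid plexus level as a covariate (-0.94, adjusted p = 0.00664). The joint call held in the fit without that library and was lost in the 11 fits that left out another mouse, with an adjusted p of up to 0.153. In SC, the genotypes differed by -0.50 ± 0.09 (adjusted p = 0.00848), and in EE by -0.14 ± 0.16 (adjusted p = 0.681). The housing comparison in controls and the genotype comparison in SC share the control SC mice. Adamts2 is on a list of enrichment genes that the study drew from these libraries, as are Col12a1, Adamts13, Col9a2 and Col6a3, so that its direction here is not independent evidence.

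Col5a1 had the next smallest p for housing in both genotypes, with log2 changes of -0.40 ± 0.14 in controls (adjusted p = 0.999) and -0.43 ± 0.14 in CBP-ifKOs (adjusted p = 0.446). Its values, given above, did not overlap between SC and EE in controls and overlapped in CBP-ifKOs. The third gene in controls was Col9a3, described below with the choroid plexus markers. The third in CBP-ifKOs was Col5a3, another minor fibrillar chain, which was at 5.78, 6.18 and 7.69 CPM in SC and 4.89, 5.41 and 4.62 CPM in EE (-0.40 ± 0.15, adjusted p = 0.492). In control mice, Col5a3 was at 4.97, 4.64 and 6.56 CPM in SC and 5.87, 4.96 and 4.81 CPM in EE, and the groups overlapped.

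For the interaction, 0 of 61 passed (edgeR, against 0% of all genes), 6 had an unadjusted p below 0.05 (3.15% of all genes), and DESeq2 gave 0. The smallest p-values belonged to Col3a1 (1.64 ± 0.61, unadjusted p = 0.0166), Col1a2 (1.38 ± 0.52, unadjusted p = 0.0182) and Col4a6 (0.90 ± 0.34, unadjusted p = 0.0196), and each had an adjusted p of 0.9998. Without CBP-ifKO EE replicate 1 these estimates were 1.51, 0.88 and 0.60 (unadjusted p = 0.0349, 0.0751 and 0.0761). Col4a6, a basement membrane chain with a restricted distribution, was at 2.09, 2.19 and 2.33 CPM in control SC mice, 1.61, 1.44 and 2.27 CPM in CBP-ifKO SC mice, 1.73, 1.32 and 1.65 CPM in control EE mice and 3.24, 1.96 and 1.87 CPM in CBP-ifKO EE mice, with the highest value again in CBP-ifKO EE replicate 1. Of the 24 meningeal markers, 22 had a positive interaction estimate, with a median of 0.90 against -0.01 over all genes, and 0 passed (7 at an unadjusted p below 0.05). CBP-ifKO EE replicate 1 had the highest value of its group in 23 of the 24, and the signs were not counted without that mouse.

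The third question was whether collagens varied between single mice together with the meningeal fibroblast markers. A slope was fitted in the 12 mice with the 4 groups as terms, so that it describes mice within their groups and gives the log2 change of a gene per doubling of the marker level. Against the meningeal level, 4 of the 61 genes passed (6.56%, against 0.712% of 18251 genes), all with positive slopes. They were Col1a2, Col6a1, Col6a2 and Col18a1, and 20 of the 61 had an unadjusted p below 0.05, against 8.15% of all genes. The 4 are collagens, and 0 of 18 ADAMTS genes passed (3 at an unadjusted p below 0.05, and 0 by DESeq2). The median slope was 0.33 over 43 collagens, -0.03 over 18 ADAMTS genes and -0.01 over all genes.

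Col1a2 followed the markers most closely, with a slope of 1.89 ± 0.20 (adjusted p = 0.000441). Its highest value in each of 3 groups belonged to the mouse with the most meningeal marker RNA, at 15.3 CPM in control SC replicate 3, 16.1 CPM in CBP-ifKO SC replicate 3 and 26.1 CPM in CBP-ifKO EE replicate 1. It passed in all 12 fits that left out a mouse, and its slope was 1.14 with the list of 7 markers (adjusted p = 0.000188). Without the group terms, the slope of Col1a2 did not pass (adjusted p = 0.0817).

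Col6a1 and Col6a2 encode chains of the type VI heterotrimer. Col6a1 was at 57.2, 90.1 and 91.5 CPM in control SC mice, 49.1, 49.6 and 98.7 CPM in CBP-ifKO SC mice, 70.5, 84.0 and 52.4 CPM in control EE mice and 89.1, 46.8 and 39.6 CPM in CBP-ifKO EE mice, and the 2 genotypes overlapped in each housing. Its slope was 1.43 ± 0.24 (adjusted p = 0.00793). Col6a2 was at 14.9, 24.8 and 20.4, 22.9, 20.3 and 33.0, 18.6, 19.1 and 12.9 and 30.5, 15.6 and 15.1 CPM in the same groups, with a slope of 1.17 ± 0.22 (adjusted p = 0.0173). CBP-ifKO SC replicate 3 and CBP-ifKO EE replicate 1 held the highest values of their groups in both genes. Without CBP-ifKO EE replicate 1, the adjusted p was 0.232 for Col6a1 and 0.722 for Col6a2, and neither passed, while Col1a1, Col1a2 and Col3a1 did. The slopes then were 1.61 and 1.04. The Col6a2 call was also lost without CBP-ifKO EE replicate 2 or 3 (adjusted p = 0.0778 and 0.0670). Without CBP-ifKO SC replicate 3, 1 gene passed, Col1a2. Col18a1 had a slope of 0.87 ± 0.18 (adjusted p = 0.0285), which passed in 5 of the 12 fits that left out a mouse.

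Col1a1 missed the threshold (slope 1.16 ± 0.26, adjusted p = 0.0570) and passed with the list of 7 markers (adjusted p = 0.0475). Col3a1 had a slope of 1.51 ± 0.49 (adjusted p = 0.294). Without CBP-ifKO EE replicate 1, the slopes were larger and passed, at 2.21 for Col1a1 (adjusted p = 0.00137), 2.61 for Col1a2 (adjusted p = 0.000466) and 3.33 for Col3a1 (adjusted p = 0.0476). In the other 11 such fits, Col1a1 passed only without control EE replicate 2 and Col3a1 in none. The basement membrane chains Col4a1 and Col4a2, which share a bidirectional promoter, had slopes of -0.14 ± 0.10 and 0.02 ± 0.09. Col4a1 was at 70.6, 72.4 and 69.4 CPM in control SC mice, 68.1, 72.6 and 76.1 CPM in CBP-ifKO SC mice, 69.0, 74.8 and 69.9 CPM in control EE mice and 69.7, 83.9 and 78.2 CPM in CBP-ifKO EE mice. Col4a2 was at 106, 98.8 and 98.6, 104, 96.7 and 113, 101, 101 and 107 and 115, 122 and 113 CPM in the same groups. The lowest and the highest of the 12 mice differed 1.23-fold in Col4a1 and 1.26-fold in Col4a2, against 4.21-fold in Col1a2 and 5.41-fold in Col3a1. The exons of Col4a1 and Col4a2 overlap by 22 bases on opposite strands.

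**Figure D4:**
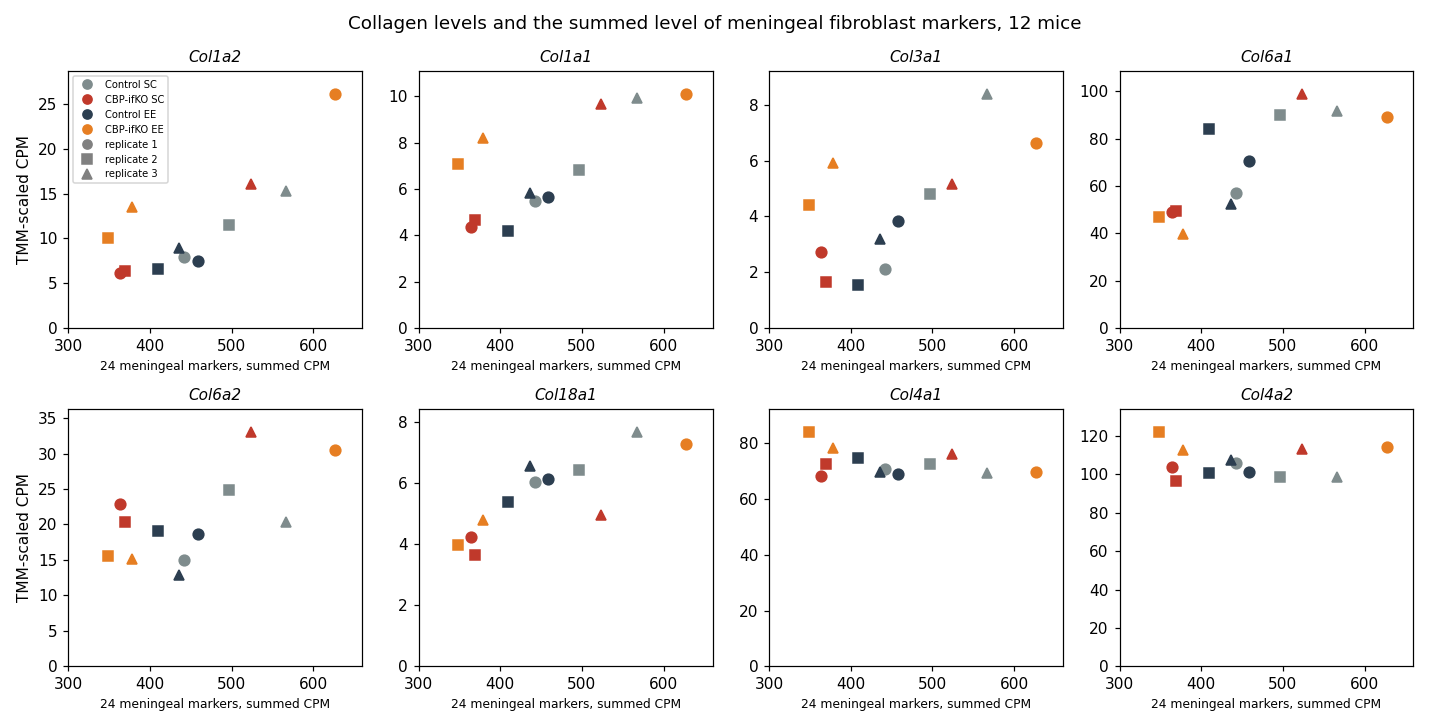
TMM-scaled CPM of 8 collagens (vertical, linear from 0) against the summed CPM of 24 meningeal fibroblast markers (horizontal, linear from 300) in 12 mice, with colours for the groups and shapes for the replicate numbers. Col1a2, Col6a1 and Col18a1 are higher where the marker level is high, whereas Col4a1 and Col4a2 stay within a narrow range.

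Against the summed level of 24 vascular markers, 0 of 61 genes passed (edgeR, against 0.0219% of all genes), 16 had an unadjusted p below 0.05 (12.7% of all genes), and DESeq2 gave 1, Adamts3. The vascular level ranged from 283 to 338 CPM for the endothelial markers and from 267 to 395 CPM for the mural markers.

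Against the choroid plexus level, 2 of 61 genes passed, Col9a3 and Col8a2 (against 0.181% of all genes), both with positive slopes, and 8 had an unadjusted p below 0.05 (3.94% of all genes). Col9a3, a fibril-associated chain, was at 9.71, 9.97 and 10.5 CPM in control SC mice, 8.93, 9.48 and 10.8 CPM in CBP-ifKO SC mice, 32.2, 11.3 and 10.7 CPM in control EE mice and 9.52, 9.87 and 11.8 CPM in CBP-ifKO EE mice. Control EE replicate 1 stood far above the other 11 mice, which lay between 8.93 and 11.8 CPM. The slope was 0.32 ± 0.03 per doubling (adjusted p = 6.23e-05). The change of Col9a3 with EE in controls was 0.85 on the log2 scale with this library and 0.13 without it.

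Col8a2 and Col8a1 encode the short chains of type VIII collagen, which forms the hexagonal network under some epithelia and endothelia. Col8a2 was at 1.75, 3.25 and 3.21 CPM in control SC mice, 1.73, 2.13 and 2.90 CPM in CBP-ifKO SC mice, 7.79, 1.59 and 1.29 CPM in control EE mice and 4.17, 1.33 and 1.93 CPM in CBP-ifKO EE mice, with a slope of 0.55 ± 0.09 (adjusted p = 0.0164). Col8a1 was at 1.08, 1.62 and 1.53, 0.953, 0.206 and 1.32, 6.42, 1.20 and 0.588 and 2.47, 0.584 and 0.819 CPM and missed the threshold (0.65 ± 0.13, adjusted p = 0.0754). Both were highest in control EE replicate 1 and next in CBP-ifKO EE replicate 1. The basement membrane chains Col4a3 and Col4a4 and the transmembrane chain Col17a1 were likewise highest in control EE replicate 1 without passing, at 2.29, 3.14 and 1.11 CPM. Without that library, 0 of 61 genes passed against the choroid plexus level. The slope of Col9a3 was then 0.12 ± 0.20 (adjusted p = 0.974), and that of Col8a2 was 1.67 ± 0.51 (adjusted p = 0.928), so that both calls and the sizes of both slopes rest on it. The Col8a2 call was also lost without control EE replicate 2 or 3 (adjusted p = 0.115 and 0.137).

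**Figure D5:**
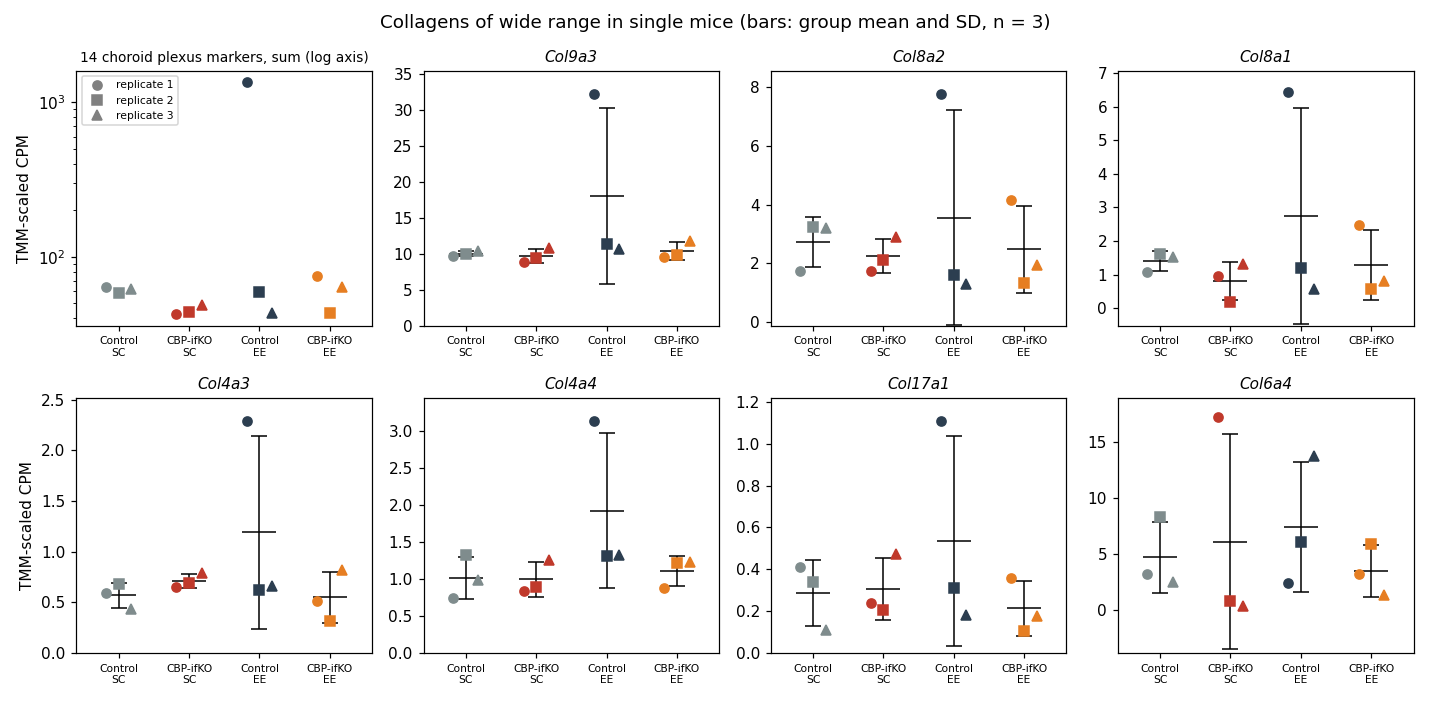
Summed CPM of 14 choroid plexus markers (log axis) and TMM-scaled CPM (linear axes) of 7 collagens with a wide range, 1 point per mouse with the group mean and SD as bars. Control EE replicate 1 is the highest point for the markers and for 6 of the collagens, whereas Col6a4 is highest in CBP-ifKO SC replicate 1.

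Col6a4 had the widest range of the genes with counts in every library and did not follow these markers. It was at 3.29, 8.34 and 2.51 CPM in control SC mice, 17.2, 0.824 and 0.369 CPM in CBP-ifKO SC mice, 2.47, 6.08 and 13.7 CPM in control EE mice and 3.24, 5.94 and 1.35 CPM in CBP-ifKO EE mice, a 46.7-fold range from 14 to 578 counts. The highest and the lowest mouse belonged to 1 group, CBP-ifKO SC. None of its tests passed with all mice. The genotype estimate in SC was 0.39 ± 0.93 with all mice (adjusted p = 0.856), and it turned to -3.01 and passed without CBP-ifKO SC replicate 1 (adjusted p = 0.0251). The gene shares 127 and 162 exonic bases with 2 genes of the opposite strand. It is named here because of its range, after its values were seen.

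Other genes of collagen synthesis and turnover were read from 5 lists, of which 46 genes were tested for genotype in SC and 45 in EE. In all, 1 passed in SC (2.17%, against 5.52% of all genes) and 2 in EE (4.44%, against 4.57%), shares at or below the background. Of 17 genes of collagen folding and modification, 0 passed for genotype in SC (edgeR, 5 at an unadjusted p below 0.05) and 1 in EE, P4ha1, a prolyl hydroxylase subunit (-0.26 ± 0.06, adjusted p = 0.0385), whose call passed only without control EE replicate 2 among the 6 fits that left out a mouse. Of the genes of propeptide removal and cross-linking, 9 were tested in each housing and 1 passed in EE, the cross-linking enzyme Lox (1.29 ± 0.32, adjusted p = 0.0462), which was not past the threshold in SC (-0.59 ± 0.56, adjusted p = 0.609). The Lox estimate in EE was 1.01 without CBP-ifKO EE replicate 1 (adjusted p = 0.151), and the call passed only without CBP-ifKO EE replicate 2 among the 6 such fits. Of 4 proteoglycan substrates of ADAMTS enzymes, Ncan (neurocan) fell in SC (-0.24 ± 0.06, adjusted p = 0.0386), a call that passed only without control SC replicate 2 among the 6 such fits, and all 4 had negative estimates in both housings, from -0.41 to -0.18 in SC. Summed markers of several other brain cell types were also lower in CBP-ifKOs. The summed level of 4 oligodendrocyte precursor markers, 1 of which is Vcan itself, was 144, 165 and 141 CPM in control SC mice, 128, 113 and 114 CPM in CBP-ifKO SC mice, 146, 158 and 145 CPM in control EE mice and 131, 128 and 119 CPM in CBP-ifKO EE mice. Of these 4, Pdgfra fell in SC (-0.38 ± 0.09, adjusted p = 0.0256, lost without control SC replicate 3 or CBP-ifKO SC replicate 1 or 2) and Gpr17 in EE (-0.36 ± 0.06, adjusted p = 0.00948, lost without CBP-ifKO EE replicate 1 or 3). The sum of 6 astrocyte markers was 1558, 1692 and 1517, 1471, 1442 and 1455, 1480.4, 1523 and 1530.5 and 1340.4, 1306 and 1383 CPM in the same groups, with 0 past the threshold in either housing (edgeR, 2 in each at an unadjusted p below 0.05). The sum of 6 interneuron markers was 923, 851 and 908, 814, 789.8 and 828, 951, 892 and 875 and 852, 816 and 839 CPM, with 1 past it in SC, Sst (-0.35 ± 0.08, adjusted p = 0.0324). That of 6 microglia markers was 302, 297 and 299, 289, 289 and 267, 308, 283 and 295 and 259, 265 and 269.8 CPM. In each of these 4 lists every CBP-ifKO sum was below every control sum of the same housing. The sum of 5 thalamus or habenula markers overlapped between genotypes in SC. In EE, it was 40.7, 38.6 and 35.5 CPM in controls and 27.6, 31.3 and 31.3 CPM in CBP-ifKOs. Prkcd of that list passed in EE (edgeR, -0.50 ± 0.10, adjusted p = 0.0197). The part of any of these lists in the proteoglycan values or in those of the collagen and ADAMTS genes was not tested.

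Of 10 collagen receptors and of the inhibitors of matrix proteases (6 tested in SC, 5 in EE), 0 passed for genotype in either housing (edgeR, 2 receptors in each housing and 0 and 1 inhibitors at an unadjusted p below 0.05). None of the 47 genes of these lists tested in 12 mice passed for housing in either genotype (2 and 4 at an unadjusted p below 0.05, against 4.21% and 8.59% of all genes) or for the interaction (3, against 3.15%).

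Of the 47 genes, 3 had a slope on the meningeal level past the threshold (against 0.712% of all genes), all positive. They were Pcolce, an enhancer of procollagen processing (1.51 ± 0.28, adjusted p = 0.0175), Mrc2, an endocytic collagen receptor (1.28 ± 0.22, adjusted p = 0.00956), and Timp2, a metalloprotease inhibitor (0.52 ± 0.10, adjusted p = 0.0169). Without CBP-ifKO EE replicate 1, the slopes of Pcolce, Mrc2 and Timp2 were 1.95, 1.40 and 0.39, and none passed (adjusted p = 0.215, 0.332 and 0.813). The 3 calls were also lost without CBP-ifKO SC replicate 3, and those of Pcolce and Mrc2 without CBP-ifKO EE replicate 2. On the choroid plexus level, 1 of the 47 passed (against 0.181% of all genes), A2m, which encodes a broad protease inhibitor (0.40 ± 0.07, adjusted p = 0.0399). Without control EE replicate 1, the library rich in choroid plexus RNA, its slope was 0.91 ± 0.43 and did not pass (adjusted p = 0.928), and it was lost in 6 of the 12 fits that left out a mouse.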

How the data were processed

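Hippocampal RNA of 12 mice was sequenced as 50-base single reads in 2 runs per mouse, which the authors merged. Per the labels and the study's methods, reads were trimmed with Trim Galore 0.6.4, aligned with STAR 2.6.1 to the mouse genome (mm10) and counted over exons. The deposited file holds raw counts per gene and an exonic length per gene, used here only for RPKM. Whether counting used strand is not given in the sources used here.

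Counts were tested in R 4.3.3 with edgeR 4.0.16 (filterByExpr, TMM, quasi-likelihood F test, Benjamini-Hochberg adjustment over all genes tested, threshold 0.05). Genotype was fitted in the 6 mice of each housing. Housing and the joint test (with an absolute log2 change above 0.5), the interaction and the slopes on marker levels (log2 of the summed CPM) were fitted in all 12 mice with 1 term per group. SE is the log2 change divided by the square root of F. Nothing states that litters or batches were balanced between groups. Members, marker lists and pathway lists were chosen with earlier results of these data known. Values in every mouse are given for genes past the threshold in a genotype, housing, interaction or joint test, the 3 with the smallest p in each of these tests but the joint one, the fibrillar chains Col1a1, Col1a2 and Col3a1, Col4a1 and Col4a2, and the 3 largest slopes among those past the threshold for the meningeal level; Col8a1, Col8a2, Col6a4, Col4a3, Col4a4 and Col17a1 were named after their values were seen. Alternatives were DESeq2 1.42.0, other size factors, no filter, halved CBP-ifKO counts, a replicate block, covariates, other marker lists and leaving out mice; 3 were added after seeing the data. With counts simulated from these libraries, changes of 1 on the log2 scale were recovered in 82.3% of changed genes for genotype in SC (17446 genes) and slopes of 1 in 66.8% for the meningeal level (17973 genes). Changes of 0.5 were recovered in 60.1% (17465 genes) and slopes of 0.5 in 26.6% (17966 genes). False calls were 7.60% of the calls for changes of 1 and 5.07% for slopes of 1. The changed genes were drawn from all genes tested but the meningeal markers, with noise set by the trend over all genes. The median spread within groups was 22.4% in the collagen and ADAMTS genes against 9.37% in all genes, so these shares do not give the recovery of the former. A floor of 3 counts is 0.0801 to 0.112 CPM, for counting error only. Coordinates are GRCm38.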

Additional observations from a re-analysis of the deposited data

How the results depend on the processing

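The effects of the genes past a threshold, and of Col1a1, Col1a2, Col3a1 and Adamts2 where given, changed direction under none of the alternatives run. Col6a4, which was not past the threshold, turned from 0.39 to -3.01 for genotype in SC without CBP-ifKO SC replicate 1 and then passed. Counts of collagen and ADAMTS genes past the threshold are given here against 8 for genotype in SC, 6 in EE, 0 for housing in either genotype and for the interaction, 1 for the joint test, and 4, 0 and 2 for the meningeal, vascular and choroid plexus slopes. Without the filter on low counts they were 18 in EE, 5 and 3 for housing in controls and CBP-ifKOs, 5 for the interaction, 7 for the joint test, and 14, 15 and 5 for the 3 slopes, and over all genes 1512 in SC and 1677 in EE against 968 and 805. DESeq2 gave 10 in EE, 1 for housing in controls and 1 for the vascular slope, and over all genes 1296 in EE. The meningeal level as a covariate gave 5 in SC and 12 in EE (1437 over all genes), and the fit of all 12 mice 1293 over all genes in EE. The choroid plexus level, alone or with the meningeal level, gave 1 for housing in controls. Leaving out the first EE mouse of each genotype, chosen after seeing the data, gave 1 for housing in controls and 0 for the choroid plexus slope. Without the group terms, the meningeal slope gave 1 and the choroid plexus slope 4.

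With the replicate block, the counts were 11 in EE, 7 for the meningeal and 1 for the choroid plexus slope, and 9 in SC. Deviations of same-numbered mice of different groups from their group means correlated at a mean r of 0.048 (-0.067 to 0.305, 5 of 18 pairs over 0.1), against -0.024 for differently numbered mice (1 of 36 over 0.1), and 8 of the 12 mice correlated best with their own number. The labels give the number no meaning, so the main tests did not take the numbers as pairs, although 27.8% of same-numbered pairs were over 0.1 against 2.78% of the others. A structure shared by number is therefore not excluded, and the fit with the block is given as an alternative. Leaving out each mouse in turn gave 5 to 9 in SC, 3 to 7 in EE, 0 to 1 for housing in controls, 0 to 0 for housing in CBP-ifKOs, 0 to 0 for the interaction, 0 to 1 for the joint test, and 1 to 6, 0 to 2 and 0 to 3 for the slopes. Over all genes, the fits with both covariates gave 1226 in EE. Housing in CBP-ifKOs gave 2 genes, against 121 without the filter, 21 with DESeq2, 10 with the block and 12 with only that genotype, and housing in controls 0 against 80 without the filter and 6 with DESeq2. The interaction gave 0 against 110 and the joint test 6 against 114 without the filter, and the joint test 13 with no fold threshold. The meningeal slope gave 130 against 416 without the filter, 215 with DESeq2, 48 without group terms and 35 without the first EE mice. The vascular slope gave 4 against 669 without the filter, 165 with DESeq2, 18 with other size factors and 20 with halved counts, and the choroid plexus slope 33 against 207 without the filter and 3 without the first EE mice. Leaving out 1 mouse gave 399 to 1908 genes in SC. The cause of these differences was not tested. Groups of 3 and low counts limit the precision for Adamts13, Col4a3, Col8a1 and Col17a1.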
